A study of Mus musculus with 9 samples.

Results

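The cholesterol synthesis enzymes described here are the products of 8 mouse genes: Hmgcs1, Mvd, Idi1, Fdps, Fdft1, Sqle, Lss and Cyp51. They were taken by gene symbol from the 78239 genes of a count table, and all 8 were among the 20610 genes that passed a filter on low counts. Each had between 1809 and 79812 read counts in every library, so counting error is small beside the differences between libraries. Levels are given in CPM, the usual scaling of counts to a fixed library total: a gene's share of the reads of its library after scaling by the deposited normalization factors.

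Epithelial cells came from the colon and small intestine of 8-week-old Lgr5-2A-eGFP mice, a reporter in which GFP is made together with the stem cell receptor Lgr5, and were sorted for GFP before polyA RNA sequencing. The 9 libraries form 3 groups of 3, GFP-high colon, GFP-negative colon and small intestine, and the labels of the small intestinal libraries name no GFP fraction. At least 30000 cells per colon fraction and 50000 per small intestinal fraction were collected. All groups carry the reporter, and neither a drug treatment nor a second allele is named for any of them. The labels do not say whether replicates came from separate animals, so p-values measure only the spread between these libraries. Library names tie some libraries across groups by a shared tag whose meaning is not stated: GFP-high colon replicate 1, GFP-negative colon replicate 1 and small intestine replicate 2 share one, both colon replicate 2 libraries another, and GFP-high colon replicate 3 and small intestine replicate 3 another.

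Library totals were 86621513 to 106673547 counts. All 8 epithelial markers were detected in every library, and their sums ran from 12170 to 30763 CPM. Summed stromal and endothelial markers reached at most 7.74 CPM, with Cdh5 at 0 throughout. The sum of 12 leukocyte markers was 80.4, 1084 and 99.3 CPM in GFP-high colon and 812, 38.0 and 9767 CPM in GFP-negative colon, against 4038, 3729 and 1516 CPM in small intestine, so GFP-negative colon replicate 3 stood apart. Without the MHC class II genes Cd74, H2-Aa and H2-Ab1, which intestinal epithelium can also express, the other 9 summed to 2.44, 273 and 20.3 CPM in GFP-high colon and 593, 3.96 and 2457 CPM in GFP-negative colon, against 39.9, 13.8 and 37.2 CPM in small intestine. Lgr5 stood at 43.5, 0.958 and 73.0 CPM in the colon libraries labelled GFP-high and at 2.84, 62.1 and 6.28 CPM in those labelled GFP-negative, so the replicate 2 libraries of the colon went against their labels. Results that rest on these libraries are therefore given with and without that pair.

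Cells build cholesterol from acetyl-CoA in the mevalonate pathway, whose early steps make isoprenoid units and whose later steps join them into squalene and close the sterol rings. The genes of this route share a transcription factor, SREBP2, which is held back by the INSIG proteins when sterols are plentiful and activates transcription when they run low. In the intestine synthesis stands beside uptake of dietary and biliary cholesterol, for which the small intestine is the main site.

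HMG-CoA synthase (Hmgcs1, chr13:119690379-119708260, plus strand) condenses acetyl-CoA with acetoacetyl-CoA. Mevalonate diphosphate decarboxylase (Mvd, chr8:122433601-122443422, minus strand) yields isopentenyl diphosphate, which the isomerase Idi1 (chr13:8885501-8892451, plus strand) interconverts with dimethylallyl diphosphate. Farnesyl diphosphate synthase (Fdps, chr3:89093588-89101959, minus strand) elongates these units, and its product also feeds protein prenylation. Squalene synthase (Fdft1, chr14:63145150-63179578, minus strand) commits farnesyl units to sterols. Squalene epoxidase (Sqle, chr15:59315077-59331192, plus strand), lanosterol synthase (Lss, chr10:76531588-76557138, plus strand) and the lanosterol demethylase Cyp51 (chr5:4081145-4104746, minus strand) carry out the following steps. All 8 are protein-coding, with gene spans from GENCODE M21 (GRCm38, also called mm10).

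The windows of 250 bases upstream of the transcription start, from RefSeq on GRCm38.p6, were found for 5 of the 8 genes: Hmgcs1, Mvd, Idi1, Lss and Cyp51. They were searched on both strands for a sterol regulatory element (TCACNCCAC), which SREBP2 binds, and for the boxes of its partner factors NF-Y (CCAAT) and Sp1 (GGGCGG), none of which overlap as spelled here. The NF-Y box was present in 5 of 5 windows, against 33.8% of 32851 promoter windows of the same length, and the Sp1 box in 5 of 5, against 32.7%. The sterol regulatory element as spelled was found in 1 of 5, that of Hmgcs1, 137 bases before the start, against 1.05% of all windows. The E-box CACGTG was found in 0 of 5, against 6.02%. The Hmgcs1 window holds all 3 kinds of box and the Mvd window belongs to the enzyme that separated the regions most clearly below; matches are in capitals on whichever strand they lie, and describe letters only. The Hmgcs1 window is chr13:119690101-119690350 on the plus strand and the Mvd window chr8:122443423-122443672 on the minus strand.
Hmgcs1: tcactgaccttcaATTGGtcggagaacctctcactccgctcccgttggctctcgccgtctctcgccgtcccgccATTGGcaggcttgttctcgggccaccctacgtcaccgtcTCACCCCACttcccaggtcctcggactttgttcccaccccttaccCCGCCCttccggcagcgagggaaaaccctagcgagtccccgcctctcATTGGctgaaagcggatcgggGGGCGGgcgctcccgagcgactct
Mvd: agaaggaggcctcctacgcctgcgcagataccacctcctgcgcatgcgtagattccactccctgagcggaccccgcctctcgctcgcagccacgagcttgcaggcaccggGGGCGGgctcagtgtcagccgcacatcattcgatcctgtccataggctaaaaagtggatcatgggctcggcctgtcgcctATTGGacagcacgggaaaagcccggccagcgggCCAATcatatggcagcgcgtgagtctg

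Corrected for gene length, as RPKM (CPM per kilobase of the deposited gene length, mean ± SD over the 9 libraries), Fdps was the most abundant enzyme at 102 ± 43.9. Fdft1 followed at 73.9 ± 33.0 RPKM. These SDs pool the 3 groups, so they also hold the differences between groups. Within libraries the CPM of Fdps was 0.853 times that of Fdft1 in GFP-high colon replicate 2 and 1.03 to 2.79 times in the others. Mvd at 29.5 ± 13.3, Hmgcs1 at 26.7 ± 11.8, Cyp51 at 26.2 ± 11.4 and Sqle at 24.9 ± 9.56 RPKM lay within this pooled spread of one another. Idi1 at 12.4 ± 4.0 RPKM and Lss at 3.02 ± 0.887 RPKM were the lowest, and the deposited length of Lss, 10787 bases, is the longest of the 8.

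All 8 enzymes had a higher mean in the colon than in the small intestine, and the difference passed the test for 2 of them, Mvd and Fdft1. Both calls were lost in fits blocked on the replicate number or on the tag that library names share. Over 18 alternative fits the Mvd call was lost in 5 and the Fdft1 call in 8. Summed over the 8 genes, the level was 1452 ± 338 CPM in GFP-high colon, 1499 ± 292 CPM in GFP-negative colon and 767 ± 108 CPM in small intestine (SD, n = 3 each). The lowest colon library, at 1164 CPM, stood above the highest small intestinal library, at 873 CPM. Fdps and Fdft1 made up most of these sums, at means of 521 and 380 CPM in GFP-high colon. Each gene was also weighted equally, by averaging its log2 CPM minus its mean over the 9 libraries. The regions then overlapped, with GFP-high colon replicate 1 at -0.285 and small intestine replicate 3 at -0.276. In bulk samples such as these, fewer cells of a type and less RNA per cell cannot be told apart.

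**Figure D1:**
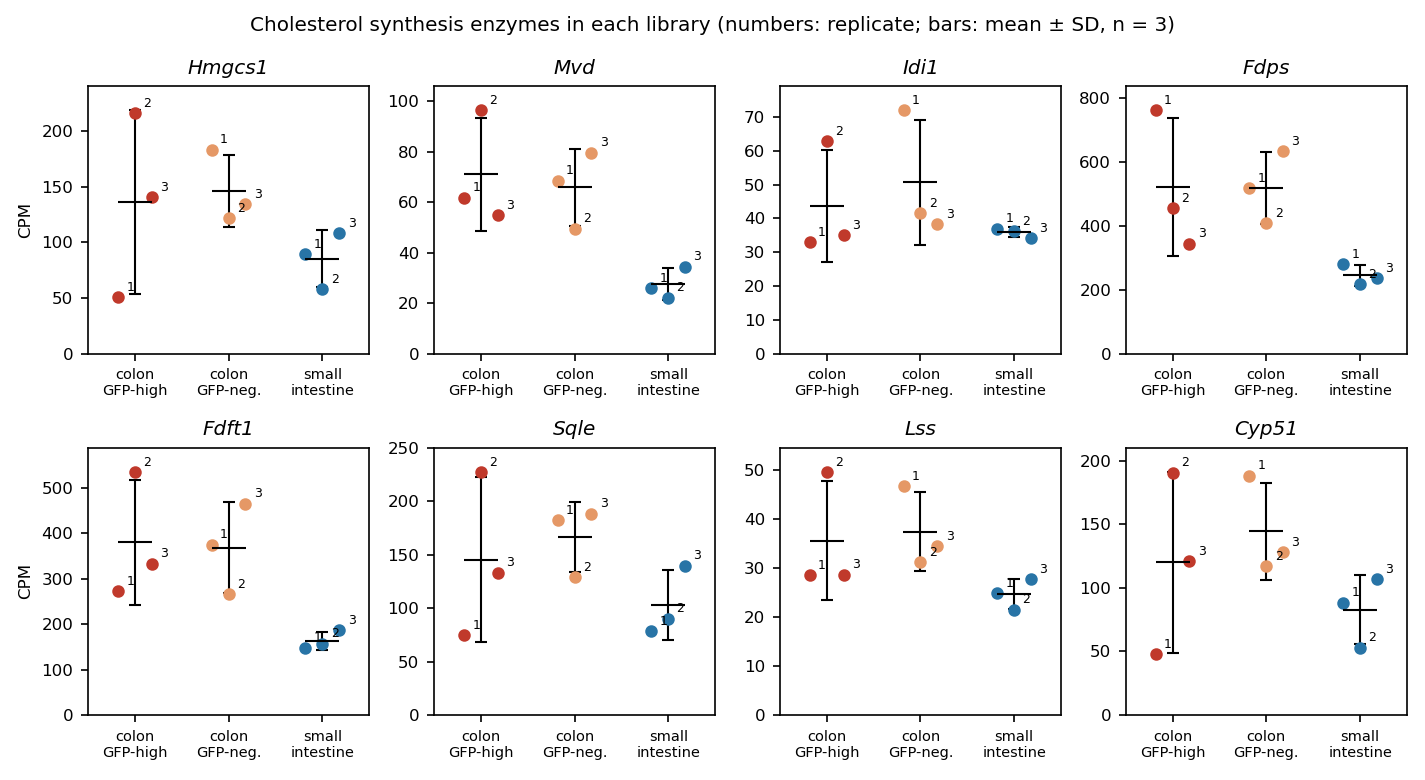
Level of each enzyme gene in CPM (linear axis from 0) in the 3 libraries of each group; points are libraries numbered by replicate, bars the group mean ± SD. Mvd, Fdft1, Fdps and Lss were higher in all 6 colon libraries than in all 3 small intestinal libraries, and the GFP-high colon points spread widely for Hmgcs1, Sqle and Cyp51.

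Mvd was at 61.8, 96.4 and 54.7 CPM in GFP-high colon and at 68.5, 49.5 and 79.7 CPM in GFP-negative colon, against 26.0, 22.2 and 34.5 CPM in small intestine. Every colon library stood above every small intestinal library. Over all colon libraries Mvd averaged 68.4 ± 17.3 CPM (SD, n = 6), against 27.5 ± 6.30 CPM in small intestine (SD, n = 3), a log2 fold change of 1.31 ± 0.28 (SE; 95% interval 0.68 to 1.94; edgeR quasi-likelihood test, Benjamini-Hochberg adjusted p = 0.0209).

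Fdft1 was at 273, 535 and 333 CPM in GFP-high colon and at 375, 265 and 465 CPM in GFP-negative colon, against 148, 157 and 186 CPM in small intestine. The regions again did not overlap. All colon libraries averaged 374 ± 108 CPM (SD, n = 6) and the small intestine 164 ± 19.8 CPM (SD, n = 3), a log2 fold change of 1.19 ± 0.29 (SE; 95% interval 0.53 to 1.85; edgeR adjusted p = 0.0369). Exons of Fdft1 overlap those of the protease gene Ctsb on the other strand, and the strand setting of the counting is not given in the sources used here, so the Fdft1 count may hold Ctsb reads; Ctsb stood at 687 to 1215 CPM, with a log2 fold change of -0.28 ± 0.22 (SE) between all colon and small intestine.

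These 2 calls compare with 1034 of 20610 genes called higher in colon, or 5.02% of all genes tested. Groups without overlap were seen for 4 of 8 enzymes (Mvd, Fdft1, Fdps and Lss), against 9.49% of all genes tested. The median log2 fold change was 0.70 over the 8 enzymes and 0.00 over all genes, and 8 of 8 estimates were positive, against 50% of all genes. When the fit was blocked on the shared tag, which leaves 2 residual degrees of freedom, both calls were lost (Mvd 1.12 ± 0.45 SE, edgeR adjusted p = 0.444, and Fdft1 0.92 ± 0.43 SE, edgeR adjusted p = 0.482). A block on the replicate number, which leaves 4, also lost both calls (Mvd 1.32, edgeR adjusted p = 0.0734, and Fdft1 1.19, edgeR adjusted p = 0.0943). Without GFP-negative colon replicate 3, the library with the highest leukocyte marker sum, both stayed (Mvd 1.27, edgeR adjusted p = 0.0288; Fdft1 1.13, edgeR adjusted p = 0.0496). With the colon replicate 2 libraries left out the calls stayed (Mvd 1.25, edgeR adjusted p = 0.0368; Fdft1 1.12, edgeR adjusted p = 0.0489). Both calls were lost without GFP-negative colon replicate 1 or without small intestine replicate 1 or 2, and that of Fdft1 also without GFP-high colon replicate 2 or 3 or small intestine replicate 3. Over the fits that left out 1 library the log2 fold change ran from 1.17 to 1.53 for Mvd and from 1.03 to 1.32 for Fdft1.

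Fdps was at 762, 456 and 344 CPM in GFP-high colon and at 517, 408 and 633 CPM in GFP-negative colon, against 280, 218 and 235 CPM in small intestine. No colon library overlapped the small intestine, but the log2 fold change of 1.09 ± 0.30 (SE) missed the threshold (edgeR adjusted p = 0.0587). It lay past it in DESeq2 (1.12, adjusted p = 0.00461) and limma-voom (1.04, adjusted p = 0.0465), and in edgeR without GFP-high colon replicate 3 (1.23, adjusted p = 0.0477). Lss was at 28.5, 49.6 and 28.6 CPM in GFP-high colon and at 46.6, 31.2 and 34.4 CPM in GFP-negative colon, against 24.8, 21.5 and 27.7 CPM in small intestine. The gap between the regions was under 1 CPM, between the lowest colon and the highest small intestinal library, and the log2 fold change was 0.57 ± 0.25 (SE; edgeR adjusted p = 0.210).

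The other 4 enzymes overlapped between the regions. Hmgcs1 was at 50.8, 216 and 141 CPM in GFP-high colon and at 184, 122 and 134 CPM in GFP-negative colon, against 89.6, 57.8 and 108 CPM in small intestine. GFP-high colon replicate 1 lay below all 3 small intestinal libraries, and the log2 fold change over all colon was 0.73 ± 0.42 (SE; edgeR adjusted p = 0.328). Cyp51 had 48.0, 191 and 121 CPM in GFP-high colon and 188, 117 and 128 CPM in GFP-negative colon, against 88.4, 53.0 and 107 CPM in small intestine. The same colon library was lowest here, and the log2 fold change was 0.67 ± 0.42 (SE; edgeR adjusted p = 0.366); exons of Cyp51 overlap those of Akap9 on the other strand, which stood at 62.7 to 164 CPM.

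Sqle reached 75.0, 228 and 133 CPM in GFP-high colon and 182, 129 and 189 CPM in GFP-negative colon, against 78.3, 90.3 and 140 CPM in small intestine. The regions overlapped, since the small intestinal maximum exceeded libraries of both colon groups, and the log2 fold change was 0.60 ± 0.36 (SE; edgeR adjusted p = 0.344). Idi1 was at 33.0, 62.8 and 35.1 CPM in GFP-high colon and at 72.0, 41.6 and 38.3 CPM in GFP-negative colon, against 37.0, 36.3 and 34.2 CPM in small intestine. The small intestinal libraries were nearly equal, at a ratio of 1.08 between the highest and the lowest, while the colon libraries spanned a ratio of 2.18, and the log2 fold change was 0.39 ± 0.29 (SE; edgeR adjusted p = 0.447). The processed pseudogenes of Idi1 held at most 1.48 CPM each.

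**Figure D2:**
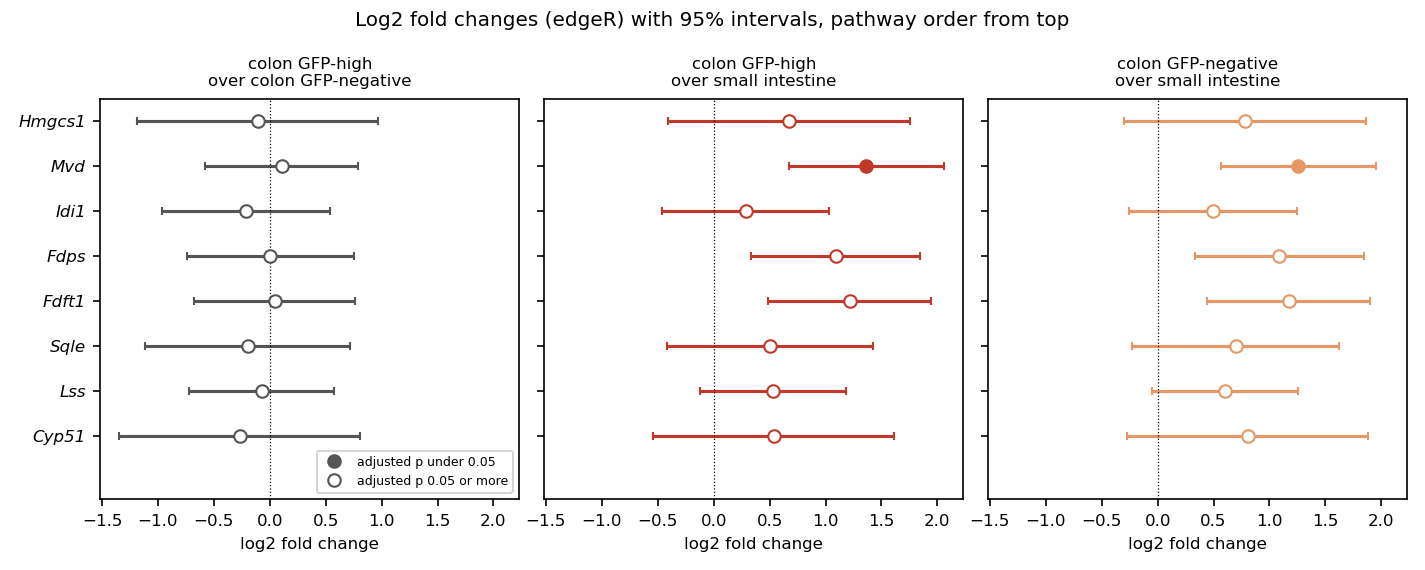
Log2 fold changes of the 8 enzymes (horizontal axis) with 95% intervals in 3 comparisons, edgeR on all 9 libraries; filled points have an adjusted p under 0.05. Mvd is the filled point in both comparisons with the small intestine, at 1.37 and 1.26, and all intervals between the colon fractions include 0.

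By colon fraction, Mvd was the enzyme that passed edgeR's test in each, and DESeq2 called 3 in each, Mvd, Fdps and Fdft1. The share of all genes called by DESeq2 is not given here, so its 3 calls have no background beside them. Over the alternatives, up to 2713 of 20610 genes were called, higher or lower, in GFP-high colon over small intestine, against 1161 in edgeR's main fit. In GFP-negative colon over small intestine it was up to 2870, against 1163. The Mvd log2 fold change was 1.37 ± 0.31 (SE) in GFP-high colon over small intestine (edgeR adjusted p = 0.0372) and 1.26 ± 0.31 (SE) in GFP-negative colon over small intestine (edgeR adjusted p = 0.0485). This call was lost in 10 of 19 alternatives in GFP-high colon and in 15 of 19 in GFP-negative colon. Those 15 include limma-voom (adjusted p = 0.0512) and total-count scaling (edgeR adjusted p = 0.0888). In edgeR that is 1 of 8 enzymes in each comparison, where 3.91% of all genes tested were called higher in GFP-high colon and 3.95% in GFP-negative colon. Fdft1 followed at 1.22 ± 0.32 (SE; edgeR adjusted p = 0.0657) in GFP-high colon and 1.17 ± 0.32 (SE; edgeR adjusted p = 0.0752) in GFP-negative colon. Both comparisons share the small intestinal libraries, so they are not separate evidence.

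GFP-high colon was above small intestine without overlap for 4 of 8 enzymes, against 14.2% of all genes tested, and GFP-negative colon for 7 of 8, all but Sqle, against 14.5%. Without the pair of colon replicate 2 libraries, Mvd in GFP-high colon over small intestine was 1.08 (edgeR adjusted p = 0.135) and the call was lost, as it was without GFP-high colon replicate 1 or 2, GFP-negative colon replicate 1 or any small intestinal library. In GFP-negative colon over small intestine the same pair left out gave 1.43 for Mvd (edgeR adjusted p = 0.0423) and 1.36 for Fdft1 (edgeR adjusted p = 0.0467), while leaving out a single library kept the Mvd call only for GFP-high colon replicate 2.

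Between the colon fractions none of the enzymes differed by the test, and none of the 20610 genes did (0% called by edgeR and by limma-voom, 1 gene by DESeq2, and 222 genes at an unadjusted p under 0.05). The log2 fold changes of GFP-high colon over GFP-negative colon ran from -0.27 ± 0.47 (SE) for Cyp51 to 0.11 ± 0.30 (SE) for Mvd, with 3 of 8 positive against 48.2% of all genes. The intervals were wide: -1.18 to 0.97 for Hmgcs1, -0.58 to 0.79 for Mvd, -0.74 to 0.75 for Fdps and -1.34 to 0.81 for Cyp51, so changes of 1 log2 unit were not resolved for Hmgcs1 and Cyp51.

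In the pair of colon libraries labelled replicate 2, all 8 enzymes were higher in the library labelled GFP-high, by ratios of 1.12 to 2.02. Without the pair all 8 log2 fold changes were negative, from -0.06 ± 0.43 (SE) for Fdps to -0.90 ± 0.53 (SE) for Cyp51, with edgeR adjusted p between 0.771 and 0.993, and none was called. Each of the 8 enzymes changed sign in at least 1 of 19 alternative fits.

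The summed enzyme level differed between colon libraries of the same label. The library labelled GFP-high colon replicate 2 had 1835 CPM for the 8 genes, with Lgr5 at 0.958 CPM and the colonocyte gene Car1 at 21057 CPM. GFP-negative colon replicates 3 and 1 had sums of 1702 and 1633 CPM, with Lgr5 at 6.28 and 2.84 CPM and Car1 at 24674 and 10064 CPM. These 3 libraries with the highest sums held the least Lgr5 of the colon. GFP-high colon replicates 1 and 3 had sums of 1331 and 1191 CPM, with Lgr5 at 43.5 and 73.0 CPM and Car1 at 466 and 6856 CPM. The library labelled GFP-negative colon replicate 2 had the lowest sum of the colon, 1164 CPM, with Lgr5 at 62.1 CPM and Car1 at 3038 CPM. That place depends on Fdps, which alone gave 762 CPM of the sum in GFP-high colon replicate 1. With each gene weighted equally, GFP-high colon replicate 1 was the lowest of the colon, at -0.285, against 0.0333 for GFP-negative colon replicate 2. In the small intestine, where Lgr5 stood at 57.9, 120 and 209 CPM, the sums were 772, 656 and 873 CPM, and the library with the most Lgr5 had the highest sum.

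Markers of cell types moved with the region as well. Calls are those of edgeR in all colon over small intestine unless another is named. There 5.02% of all genes tested were called higher and 3.74% lower. The 8 enterocyte markers summed to 51.4 to 164 CPM in GFP-high colon and 75.0 to 225 CPM in GFP-negative colon, against 232 to 21590 CPM in small intestine, and 7 of 8 were called lower in colon. The 8 Paneth cell markers summed to 80.1 to 5176 CPM in GFP-high colon and 509 to 3546 CPM in GFP-negative colon, against 16078 to 25644 CPM in small intestine, with 6 of 8 called lower. Ang4 carried the highest colon sums, at up to 4801 CPM in GFP-high colon and 3119 CPM in GFP-negative colon. It went the other way and was not called, with means of 1651 and 1352 CPM there, against 505 CPM in small intestine. The colon and small intestinal ranges of the enterocyte and Paneth cell sums did not overlap. For the enterocyte markers the gap was narrow, from 225 CPM in GFP-negative colon replicate 3 to 232 CPM in small intestine replicate 2. Goblet cell markers summed to 7101 to 41121 CPM in GFP-high colon and 13372 to 44414 CPM in GFP-negative colon, against 1585 to 19013 CPM in small intestine, with 4 of 8 called higher. Colonocyte markers summed to 2534 to 29659 CPM in GFP-high colon and 7465 to 32893 CPM in GFP-negative colon, against 1696 to 5578 CPM in small intestine, with 2 of 8 called higher. Both summed levels overlapped between the regions. The 9 intestinal stem cell markers summed to 205 to 921 CPM in GFP-high colon and 192 to 985 CPM in GFP-negative colon, against 5528 to 10384 CPM in small intestine, with 1 of 9 called lower, the secreted glycoprotein gene Olfm4. Olfm4 carried that difference, at 2.21 to 5.15 CPM over the colon libraries, against 4909 to 8852 CPM in small intestine. The other 8 summed to 202 to 918 CPM in GFP-high colon and 189 to 983 CPM in GFP-negative colon, against 619 to 1571 CPM in small intestine, with overlap. The 10 mitosis markers summed to 862 to 1963 CPM in GFP-high colon and 837 to 2011 CPM in GFP-negative colon, against 1764 to 2692 CPM in small intestine. In GFP-high colon over small intestine DESeq2 called 1 of these 10 lower, Bub1. In all colon over small intestine 0 were called in edgeR, DESeq2 or limma-voom. An unadjusted p under 0.05 was seen for 2, and for 5093 of all 20610 genes tested. None of these lists had a gene at 0 in every library of a group, and their part in the enzyme result was not tested.

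The remaining mevalonate and sterol synthesis genes, a list of 14, showed the same sign in 13 of 14 between all colon and small intestine. Their median log2 fold change was 0.53, but 0 passed the test in edgeR or limma-voom. An unadjusted p under 0.05 in edgeR was seen for 7 of the 14, and for 5093 of all 20610 genes tested. DESeq2 called 5 of them higher in colon (Mvk, Pmvk, Tm7sf2, Msmo1 and Dhcr7) and Lbr lower. Its share of all genes called is not given here. Over the alternatives, up to 3618 of 20610 genes were called, higher or lower, in this comparison. Lbr, a lamin B receptor with sterol reductase activity, was the gene of opposite sign, at -0.87 ± 0.25 (SE; edgeR adjusted p = 0.0655).

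Between the colon fractions the 22 synthesis genes, enzymes included, gave 6 positive and 16 negative estimates, with 0 called by edgeR, DESeq2 or limma-voom and 0 at an unadjusted p under 0.05. The largest estimate between regions was that of the methylsterol oxidase Msmo1, chosen after its values were seen, at 1.78 ± 0.51 (SE; edgeR adjusted p = 0.0665, and 0.0025 in DESeq2). Msmo1 had 137, 462 and 165 CPM in GFP-high colon and 300, 168 and 417 CPM in GFP-negative colon, against 111, 47.5 and 80.7 CPM in small intestine, without overlap.

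**Figure D3:**
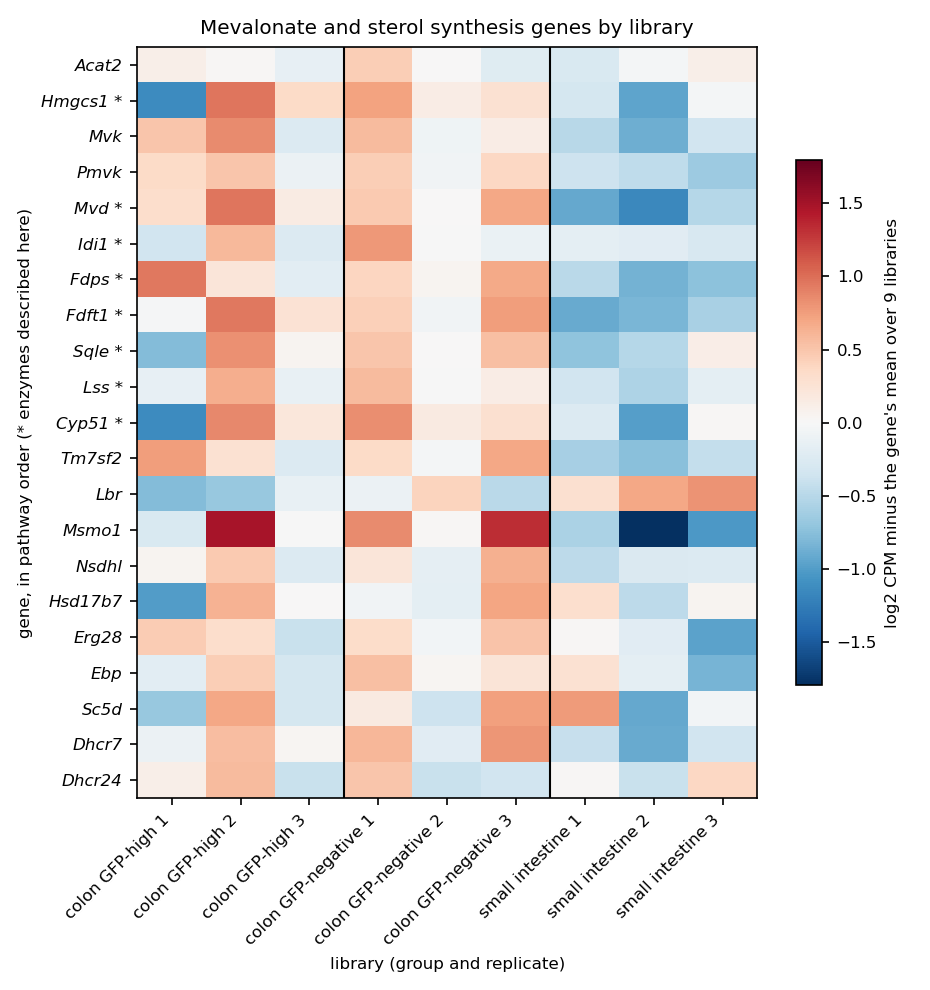
Log2 CPM of mevalonate and sterol synthesis genes minus each gene's mean over the 9 libraries, in pathway order from top; columns are libraries by group and replicate, red above and blue below the mean. Most genes are blue in the small intestinal columns, Lbr runs the other way, and GFP-high colon replicate 1 is blue for Hmgcs1, Sqle and Cyp51 but red for Fdps.

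Of the 14 regulators of the pathway, 1 was called higher in colon and 1 lower, where 3.74% of all genes tested were called lower. Srebf2, which encodes SREBP2, was at 130, 159 and 142 CPM in GFP-high colon and 175, 141 and 120 CPM in GFP-negative colon, against 124, 100 and 120 CPM in small intestine (log2 fold change of all colon 0.33 ± 0.19 SE; edgeR adjusted p = 0.322). The ranges overlapped. Insig1, which retains SREBP2 in the endoplasmic reticulum, had 0.59 ± 0.28 (SE; edgeR adjusted p = 0.236). Mylip, called higher in colon, encodes an E3 ubiquitin ligase induced by the sterol-sensing LXR receptors (3.50 ± 0.38 SE; edgeR adjusted p = 0.00123). Nr1h3, called lower, encodes LXR-alpha, one of those receptors (-1.86 ± 0.28 SE; edgeR adjusted p = 0.00481).

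Of 12 genes of cholesterol uptake, efflux and storage, 6 estimates of all colon over small intestine were positive and 6 negative. The 4 called lower in colon each had a larger difference between the regions than any enzyme. Abcg1 went the other way and was not called, at means of 1.45 CPM in GFP-high colon, 3.48 CPM in GFP-negative colon and 0.159 CPM in small intestine. Npc1l1, the sterol importer of the brush border, stood at 0.0955, 0.261 and 0.382 CPM in GFP-high colon and 0.0778, 0.0997 and 1.78 CPM in GFP-negative colon, against 247, 11.9 and 111 CPM in small intestine. Every small intestinal library was above every colon library, and the log2 fold change of all colon was -8.26 ± 1.23 (SE; edgeR adjusted p = 0.0047). Abcg5 and Abcg8, the paired exporters of plant sterols and cholesterol, had -4.79 ± 0.46 and -6.64 ± 0.99 (SE; edgeR adjusted p = 7.59e-04 and 0.00472), and Soat2, which esterifies cholesterol for chylomicrons, -6.35 ± 0.67 (SE; edgeR adjusted p = 0.00115).

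In that list of 12, 4 were called lower in colon and 2 higher, where 3.74% of all genes tested were called lower and 5.02% higher. Of the 2 called higher, Scarb1 had a larger estimate than any enzyme. Scarb1, the HDL receptor, was at 61.5, 32.6 and 48.9 CPM in GFP-high colon and 39.8, 46.5 and 36.5 CPM in GFP-negative colon, against 11.3, 10.02 and 26.0 CPM in small intestine (1.49 ± 0.37 SE; edgeR adjusted p = 0.0389). Its ranges did not overlap, but the call was lost in 10 of 18 alternatives, with an edgeR adjusted p of up to 0.364. Among these were the colon replicate 2 pair left out (edgeR adjusted p = 0.076) and total-count scaling. So were the fits without GFP-high colon replicate 1 or 3, GFP-negative colon replicate 1 or 2, or small intestine replicate 1 or 2. The other was Npc2, a lysosomal cholesterol carrier named for the count, at 0.91 ± 0.24 (SE; edgeR adjusted p = 0.0495), whose call was lost whichever of the 9 libraries was left out. Of the 9 isoprenoid branch genes 0 were called in edgeR, DESeq2 or limma-voom and 0 had an unadjusted p under 0.05, with a median of 0.05. Of 12 fatty acid synthesis genes 1 was called, where 8.76% of all genes tested were called, higher or lower. It was the stearoyl-CoA desaturase Scd2, higher in colon at 2.83 ± 0.39 (SE; edgeR adjusted p = 0.00334). Limma-voom called Scd1 higher beside it, and DESeq2 called Scd1 higher and the desaturase Fads1 lower as well.

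**Figure D4:**
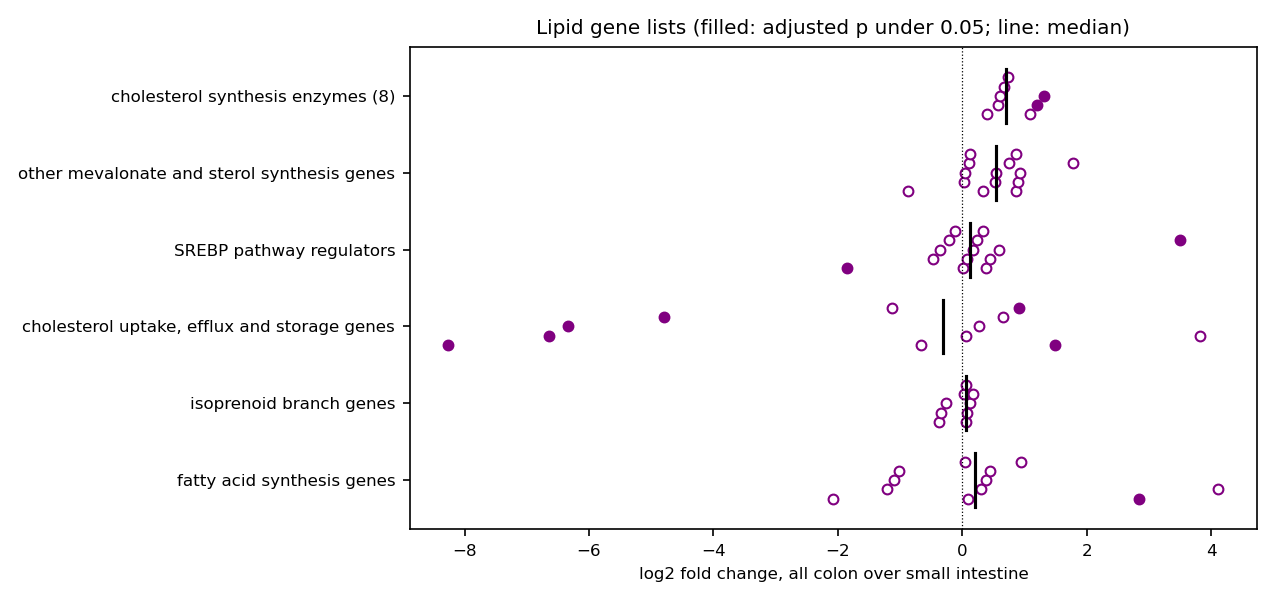
Log2 fold change of all colon over small intestine for each gene of 6 lipid lists; points are genes, filled where the adjusted p is under 0.05, and the vertical line is the list's median. The 8 enzymes lie between 0.39 and 1.31, whereas 4 genes of uptake, efflux and storage lie below -4.

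The enzymes varied together only in part across libraries. Of the 28 pairs among the 8 genes, Hmgcs1 and Cyp51, chosen after their values were seen, kept the most constant ratio. Cyp51 over Hmgcs1 ran from 0.859 to 1.02 over the 9 libraries, while Hmgcs1 itself varied 4.26-fold and Cyp51 3.97-fold. The ratio of a pair differed between its highest and lowest library by 1.19-fold for these genes and by a median of 2.75-fold over the 28 pairs. It differed by 7.19-fold for Fdps over Cyp51, which was highest in GFP-high colon replicate 1.

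Fdps stood apart in GFP-high colon replicate 1. It was 15.0 times Hmgcs1 there, against 2.11 to 4.72 times in the other 8 libraries, and 2.79 times Fdft1, against 0.853 to 1.89 times in the others. That library had the highest Fdps of the 9 and the lowest Hmgcs1, Idi1, Sqle and Cyp51. It also had the fewest genes detected, 20715 against 22415 to 28206 in the others. Across the 9 libraries, which share the differences between groups, log2 CPM was correlated with the mean of the other 7 enzymes. The correlation was 0.95 for Lss, 0.91 for Fdft1 and 0.47 for Fdps, and from 0.72 (Idi1) to 0.87 (Mvd) for the remaining enzymes.

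**Figure D5:**
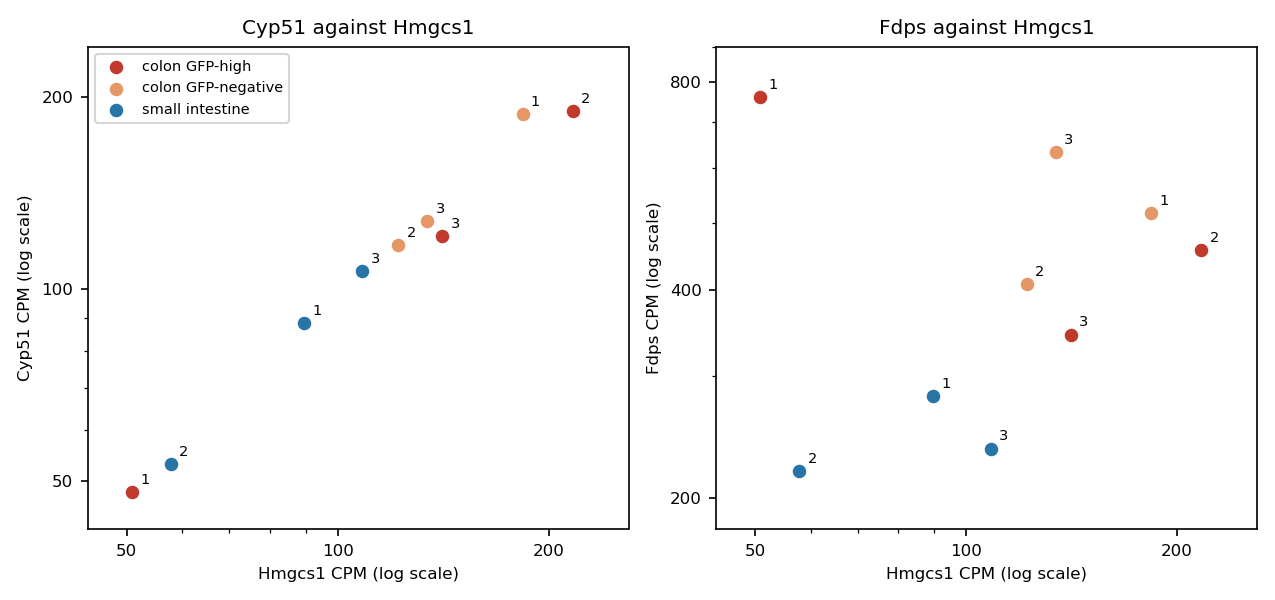
CPM of Cyp51 (left) and Fdps (right) against CPM of Hmgcs1 in the 9 libraries, on log axes; points are libraries coloured by group and numbered by replicate. Cyp51 lies along a line with Hmgcs1, while GFP-high colon replicate 1 combines the highest Fdps, 762 CPM, with the lowest Hmgcs1, 50.8 CPM.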

How the data were processed

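PolyA RNA of 9 libraries was measured. The authors deposited raw read counts for 78239 genes, library sizes, normalization factors (a ratio per library, reproduced here by edgeR's TMM method within 4.44e-15) and log2 CPM, RPKM and TPM values, per the file headers. The submitters' processing notes name STAR, featureCounts, Subread, edgeR and the build mm10; the sources used here give no versions, strand setting or handling of multi-mapping reads.

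From the counts and deposited factors, CPM was computed per gene and library, and RPKM with the deposited lengths; the deposited log2 CPM was used for likeness between genes and for the heat map, and log2 TPM was not used. Genes were filtered by group in edgeR 4.0.16 (R 4.3.3), leaving 20610. All 9 libraries entered a single quasi-likelihood fit with 4 contrasts, p-values were adjusted over all genes tested, and an adjusted p under 0.05 was called. "All colon" is the mean of both colon groups. The method was tested on simulated data with changes larger than those of the enzymes, so that test does not show what could be detected at their size. The common biological coefficient of variation was 0.726, and a level of 3 counts is 0.0232 to 0.0411 CPM, which covers counting error only. No libraries of a group agreed within sampling noise: the chi-square per gene was 328 to 792.

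The enzymes and the gene lists were chosen with earlier results of these data known. Named genes were the 8 enzymes, Insig1, Srebf2, Lgr5, up to 8 called genes of the other lipid lists per comparison by smallest p, and the 6 genes most like the enzymes; some genes that the rule names are not reported here. Marker genes of cell types were summed by list. Alternatives were DESeq2 1.42.0, limma-voom (limma 3.58.1), other scalings, no filter, fits with fewer groups, blocks, and leaving out libraries. Of the gene IDs, 51498 (65.8%) were in GENCODE M21.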

Additional observations from a re-analysis of the deposited data

How the results depend on the processing

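Between the colon fractions 0 enzymes were called in any of the 19 alternatives, and estimates near 0 changed sign. Fdps turned to -0.0023 in DESeq2 and with its size factors in edgeR, to -0.053 in limma-voom, to -0.042 with the replicate number as a block and to -0.057 when the pair of colon replicate 2 libraries was left out. Leaving that pair out also gave -0.35 for Mvd and -0.47 for Fdft1, and in GFP-high colon over small intestine -0.074 for Idi1. Total-count scaling, which moved the median of all genes by 0.143 in the comparison of the colon fractions, gave 0.035 for Lss and 0.131 for Srebf2, and the replicate block 0.00029 for Srebf2. Leaving out 1 library at a time, the estimates for GFP-high colon over GFP-negative colon ranged from -0.613 to 0.276 for Hmgcs1, -0.178 to 0.253 for Mvd, -0.572 to 0.128 for Idi1, -0.381 to 0.224 for Fdps, -0.283 to 0.235 for Fdft1, -0.679 to 0.105 for Sqle, -0.389 to 0.117 for Lss and -0.772 to 0.0992 for Cyp51. They ranged from -0.369 to 0.117 for Insig1 and -0.144 to 0.144 for Srebf2; in GFP-high colon over small intestine they ranged from -0.074 to 0.474 for Idi1.

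The number of enzymes called in GFP-high colon over small intestine was 3 in DESeq2 and 0 with only the groups compared, the replicate block, the library name tag as a block, or the pair left out; it was 0 to 1 leaving out 1 library. In GFP-negative colon over small intestine it was 3 in DESeq2, 2 without the pair, and 0 in limma-voom, with total-count scaling, DESeq2 size factors, no filter on low counts, only the groups compared and either block; leaving out 1 library gave 0 to 1. In all colon over small intestine it was 3 in DESeq2 and limma-voom (Mvd, Fdps and Fdft1), 0 with either block and 0 to 2 leaving out 1 library. Outside the enzymes, the calls of Mylip, Nr1h3, Npc1l1, Abcg5, Abcg8, Soat2 and Scd2 in all colon over small intestine were kept in 17 of 18 alternatives and lost when the library name tag was a block. Those of Scarb1 and Npc2 were kept in 8 and 5 of 18. The cause of these changes was not tested. Over all genes the calls ranged from 18 to 2713 in GFP-high colon over small intestine, from 0 to 2870 in GFP-negative colon over small intestine and from 17 to 3618 in all colon over small intestine, and from 0 to 1 between the colon fractions. DESeq2's own count over all genes is not given here for the comparisons with the small intestine. Replicate numbers were not taken to pair the libraries: deviations of libraries with the same number correlated from -0.604 to 0.304, over 0.1 in 2 of 9 pairs, and those of libraries with the same name tag from -0.604 to 0.275, over 0.1 in 2 of 5; the labels do not say what number or tag marks. With the replicate block Mvd in all colon over small intestine was 1.32 (edgeR adjusted p = 0.0734) and Fdft1 1.19 (edgeR adjusted p = 0.0943). TMM factors from the filtered genes, an alternative chosen after seeing the data, changed no call of an enzyme. With 3 libraries per group, the spread between libraries rather than read depth limits what could be resolved.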

Other observations

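Among 8617 genes averaging 10 CPM or more, the first 6 by likeness of their log2 CPM to the mean of the 8 enzymes over the 9 libraries included Mlph (Pearson r = 0.967), C4bp (0.959), Gsn (0.957), Adam15 (0.957) and Akr1c14 (0.948). Mlph encodes melanophilin, a linker of Rab27 to myosin, and Gsn the actin-severing protein gelsolin. Among the lipid lists, Msmo1 ranked 8 (0.945), Dhcr7, the last reductase of cholesterol synthesis, 12 (0.935), Insig1 82 (0.886) and Srebf2 374 (0.801). These correlations describe 9 libraries that share the differences between groups. Of the 6 genes, 2 to 5 stayed among the first 6 when a library was left out, and 3 with total-count scaling.

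Cell types that make up a small share of the epithelium varied between libraries of the same label. Summed over 8 enteroendocrine markers, the levels were 646, 12022 and 481 CPM in GFP-high colon and 3412, 151 and 3366 CPM in GFP-negative colon, against 688, 396 and 566 CPM in small intestine. Summed over 8 tuft cell markers they were 154 to 651 CPM in GFP-high colon and 110 to 194 CPM in GFP-negative colon, against 122 to 837 CPM in small intestine.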
